A study of Homo sapiens with 6 samples.

Results

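The region described here is the gene-dense part of the short arm of chromosome 19 (19p), from its end to 19.7 Mb on GRCh37. Its members were all clusters of eCLIP reads that lay on chromosome 19 and ended at or before that position, which gave 7571 of the 205520 clusters in the 3 deposited lists. They comprised 234 of 5717 clusters in the FLAG-only control (4.09%), 3891 of 102843 in FLAG-Angel1 replicate 1 (3.78%) and 3446 of 96960 in FLAG-Angel1 replicate 2 (3.55%). No cluster crossed the border. The last cluster inside it in replicate 1 ran from 19681510 to 19681524 and the first outside from 19729381 to 19729467, and in replicate 2 these were 19675748 to 19675769 and 19735197 to 19735274. In the control the last cluster inside ran from 19300041 to 19300076, and the next one on the chromosome lay at 30433262 to 30433323.

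The study asked which RNAs are bound by Angel1. The cells were Flp-In T-REx HEK293, derived from human embryonic kidney and built to take up an inducible transgene at 1 defined site, and they carried FLAG-Angel1 as a stable insertion expressed near the endogenous level according to the methods. All cells received 5 ng/mL tetracycline for 24 h and, by the labels, UV light of 254 nm at 400 mJ/cm2, and RNA bound to FLAG-tagged protein was recovered with the M2 antibody. The 6 libraries were 2 FLAG-Angel1 IPs, 1 FLAG-only IP and the size-matched input of each. The genotype label of the FLAG-only libraries also reads FLAG-Angel1, whereas the methods describe control cells with no FLAG fusion protein, and the methods' description was used. The methods also mention a sample kept from UV light, which no label marks, so cross-linking of the control rests on its label. Nothing in the labels says that the replicates came from separate cultures.

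Angel1 belongs to the family of CCR4-like nucleases, whose best-known members shorten the poly(A) tails of mRNAs. It has been linked to the quality control that clears mRNAs on which ribosomes have stalled or run off the end. In eCLIP, protein is cross-linked to RNA, the bound fragments are sequenced, and clusters of reads mark where they came from. Since the protocol keeps the strand, a cluster on the plus or minus strand belongs to a transcript of that direction. Chromosome 19 is the most gene-dense human chromosome and is rich in G and C, and its short arm is packed with short, broadly expressed genes, among them ones for translation factors, ribosomal proteins and RNA-binding proteins. For each cluster the authors computed a log2 fold (IP over input) and a P. Clusters with P under 0.05 and a log2 fold above 0 were called enriched, and reproducible peaks were merged from overlapping clusters of both replicates with P under 0.001 and a log2 fold above 0. With 1 control library, and with clusters and windows that are not replicates, no test between libraries or regions was possible. Wilson 95% intervals are given for shares and cover counting error only.

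Clusters were crowded on 19p in all 3 libraries. Replicate 1 had 198 clusters per Mb on 19p against 41.3 per Mb on the other autosomes (4.78 times), replicate 2 had 175 against 39.02 (4.48 times), and the control had 11.9 against 2.19 (5.42 times). Both FLAG-Angel1 replicates were thus denser on 19p by a similar factor as the control. The densest other autosome was chromosome 17 in both replicates, with 98.5 clusters per Mb in replicate 1 and 92.3 in replicate 2, whereas in the control chromosome 21 stood above 19p with 16.03 per Mb. The remainder of chromosome 19 lay between 19p and the other autosomes, at 3.02 times their density in the control and 2.87 and 2.72 times in the FLAG-Angel1 replicates. The lists hold no level of expression, so more transcribed sequence per Mb and more binding per transcript cannot be told apart.

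The factor rose with a stricter P in the FLAG-Angel1 replicates and not in the control, but it did not rise in the same way with a higher fold. Enriched clusters reached 52.3 per Mb on 19p against 4.31 elsewhere in replicate 1 (12.1 times) and 93.5 against 15.5 in replicate 2 (6.04 times). In the control the same selection gave 10.7 against 2.05 per Mb (5.20 times). At P under 0.001 FLAG-Angel1 replicates reached factors of 15.04 and 8.11, and the control 4.29. The rest of chromosome 19 changed in the same directions. In replicate 1 its factor was 5.60 for enriched clusters and 7.41 at P under 0.001. In replicate 2 these were 3.24 and 3.92, and in the control 2.69 and 2.28. Reproducible peaks stood at 11.1 per Mb on 19p and 0.783 per Mb on the other autosomes, a factor of 14.1, and the highest other autosome was chromosome 17 with 2.26 per Mb. The rest of chromosome 19 had 4.72 per Mb, a factor of 6.03. For clusters with a log2 fold above 3 the factors were 9.45 and 3.60 in the FLAG-Angel1 replicates and 4.38 in the control. For reproducible peaks whose log2 folds reached 3 in both replicates it was 6.96, from 6 peaks on 19p.

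**Figure D1:**
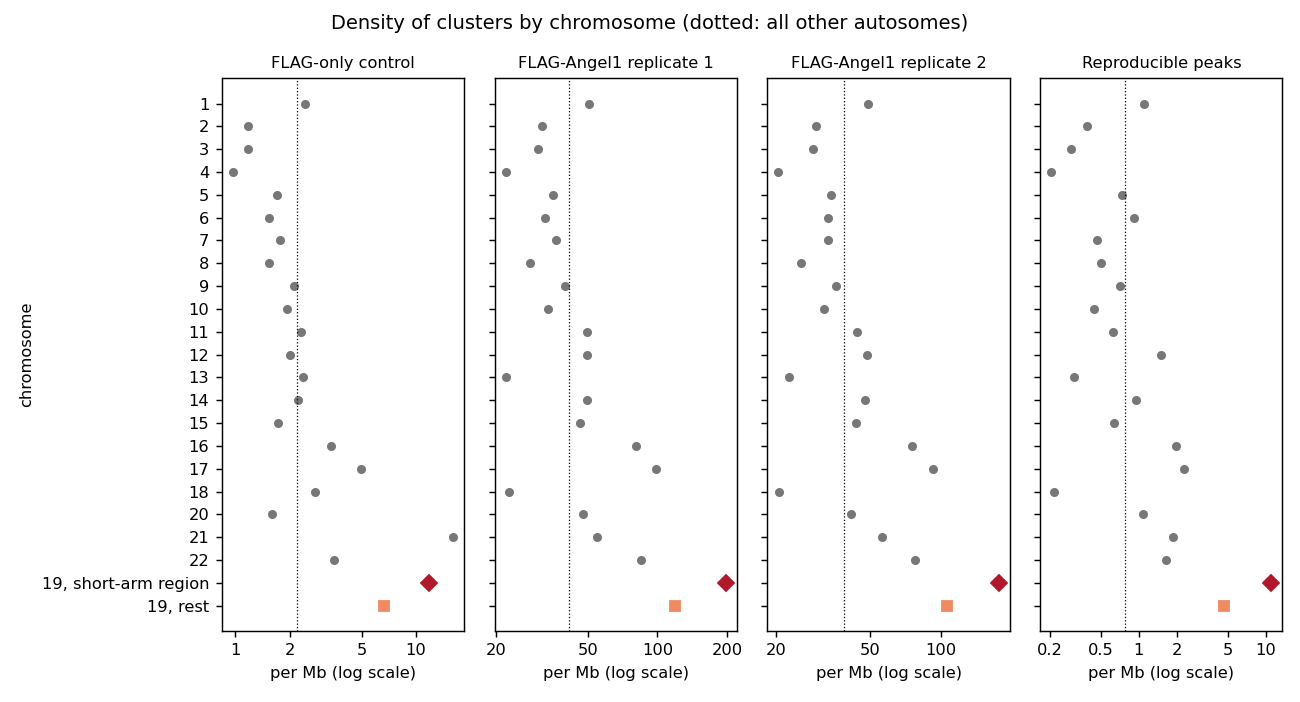
Clusters per Mb (log scale) by autosome for the 3 libraries, and reproducible peaks per Mb. Grey points are the 21 other autosomes, the diamond is 19p, the square is the rest of chromosome 19, and the dotted line is the density over all other autosomes; 19p lies to the right of every other autosome in the FLAG-Angel1 panels and the reproducible peaks, and below chromosome 21 in the control.

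Counted per protein-coding gene over all clusters, chromosome 19 as a whole stood apart less. Its 1451 protein-coding genes in RefSeq corresponded to 5.73 clusters per gene in replicate 1, with 6 of 21 autosomes above it, and to 5.10 in replicate 2, with 8 of 21 above. The control had 0.332 clusters per gene, with 3 autosomes above. Enriched clusters came to 1.331 per gene in replicate 1, with only chromosome 21 above at 1.335. In replicate 2 they came to 2.56 and in the control to 0.287, each with 4 autosomes above. Reproducible peaks came to 0.272 per coding gene, and no other autosome was higher, although chromosome 21 was close at 0.264. These ratios use the whole chromosome, because the gene table used here is of another build and its positions were not used.

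Along 19p the density was uneven, in much the same way in both replicates. Counted in windows of 1 Mb from the end of the arm, replicate 1 held 95 to 461 clusters per Mb (median 189 over 20 windows) and replicate 2 held 78 to 424 (median 150). Every one of the 20 windows exceeded the median window of the other autosomes, which held 26 clusters in replicate 1 and 24 in replicate 2. The fullest windows in both replicates were window 2 (1000001 to 2000000), with 461 and 424 clusters, and window 11 (10000001 to 11000000), with 325 and 334, followed by window 3 (2000001 to 3000000), with 292 and 265. No window of another autosome held as many clusters as window 2 in either replicate, where the highest were 449 and 399. Together these 3 windows accounted for 27.7% (replicate 1) and 29.7% (replicate 2) of 19p clusters.

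The emptiest windows of 19p were still above most of the genome. Window 7 (6000001 to 7000000) held 95 clusters in replicate 1 and 78 in replicate 2, and 226 and 282 of the 2215 windows of other autosomes were denser. Window 16 (15000001 to 16000000) held 106 and 92. Window 10 (9000001 to 10000000) was the next lowest in replicate 1, with 96 clusters, but held 103 in replicate 2, and window 9 (8000001 to 9000000) held 107 and 83. In the control the windows held 0 to 52 clusters per Mb (median 8). Its fullest were again window 2 with 52 and window 11 with 28, and its only window without a cluster was window 10.

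**Figure D2:**
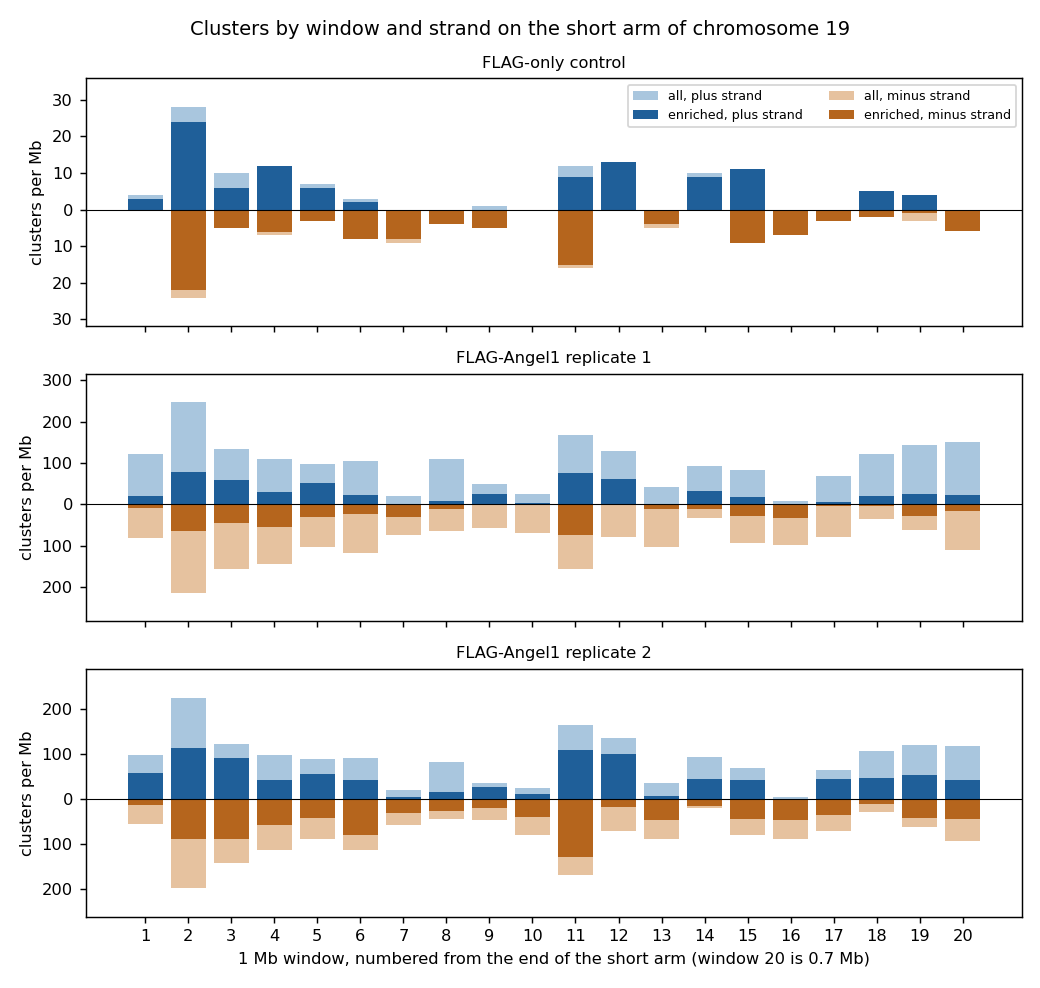
Clusters per Mb in the 20 windows of 19p in each library, plus strand upward and minus strand downward, with enriched clusters in the darker shade; vertical scales differ between the panels. Windows 2 and 11 are the tallest in all 3 libraries, and in the FLAG-Angel1 panels window 16 holds almost only minus-strand clusters.

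Over the whole of 19p the strands were used alike. The plus strand held 51.25% of clusters in replicate 1 (interval 49.7 to 52.8), 51.33% in replicate 2 (49.7 to 53.0) and 51.28% in the control (44.9 to 57.6), close to the other autosomes at 51.1%, 51.2% and 52.5%. The rest of chromosome 19 had a plus-strand share of 67.6% in the control and of 60.5 and 61.9% in the FLAG-Angel1 replicates. Single windows were far from balance in both directions. In window 16 the plus strand held 9 clusters in replicate 1 and 4 in replicate 2, and the minus strand 97 and 88. In window 18 (17000001 to 18000000) the plus strand held 121 and 108 and the minus strand 35 and 29. The share on the plus strand ran from 8.49 to 77.6% over windows in replicate 1 and from 4.35 to 82.3% in replicate 2. Clusters rarely faced one of the opposite strand, on 19p as on the other autosomes. Replicate 1 had 26 such clusters on 19p (0.67%, against 0.50% on the other autosomes) and replicate 2 had 8 (0.23% against 0.19%). The control had 0 of 234 (interval up to 1.61%, against 0.04% on the other autosomes).

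Taking each window and strand as a unit, the counts of the replicates followed each other closely, with r = 0.98 (rho = 0.97, n = 40 units). As neighbouring units share their library and the gene content of the arm, these values are a description. Replicate 2 held 0.886 clusters for each one of replicate 1 on 19p (0.945 on the other autosomes), and it held fewer in 36 of 40 units. For enriched clusters r was 0.90 (rho = 0.84). Control counts followed those of FLAG-Angel1 less closely, with r = 0.79 for replicate 1 (rho = 0.67) and 0.82 for replicate 2 (rho = 0.72). The control had only 234 clusters over the 40 units and none in 11 of them. The part of such low counts in these values was not tested.

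**Figure D3:**
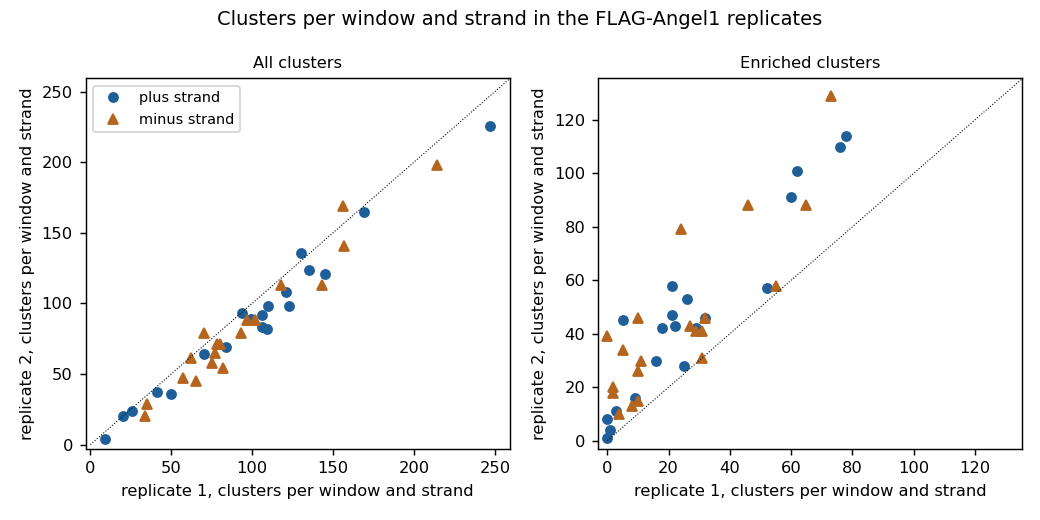
Clusters in each window and strand of 19p in replicate 1 (horizontal) and replicate 2 (vertical), for all clusters on the left and enriched clusters on the right. Circles are plus-strand and triangles minus-strand units (40 in all), and the dotted line marks equal counts; all clusters lie near or just below the line, and enriched clusters mostly above it.

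A larger share of the clusters was enriched on 19p than elsewhere in both FLAG-Angel1 replicates. In replicate 1, 1031 of 3891 clusters were enriched (26.5%, interval 25.1 to 27.9), against 11.7% over the whole list and 10.4% on the other autosomes. In replicate 2, 1842 of 3446 were enriched (53.5%, 51.8 to 55.1), against 40.7% over the list and 39.7% on the other autosomes. In the control, 210 of 234 were enriched (89.7%, 85.2 to 93.0), against 91.8% over the list and 93.6% on the other autosomes. The rest of chromosome 19 lay between 19p and the other autosomes as a group, at 20.3% in replicate 1 and 47.3% in replicate 2. In the control it was below both, at 83.4%. The share on 19p exceeded that of each of the 21 other autosomes in both replicates. Among these, chromosome 21 came nearest to 19p, with 17.1% in replicate 1 and 50.6% in replicate 2. P was under 0.001 for 435 clusters of replicate 1 (11.2%; 4.22% over the list), 990 of replicate 2 (28.7%; 17% over the list) and 123 of the control (52.6%; 64.5% over the list).

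The median log2 fold on 19p was above that of the other autosomes in both FLAG-Angel1 replicates and below it in the control. The median log2 fold of 19p clusters was 0.94 in replicate 1 (0.50 on other autosomes), 1.85 in replicate 2 (1.73) and 3.95 in the control (5.37). The rest of chromosome 19 had 0.77 and 1.73 in replicates 1 and 2, and in the control 3.95, the same as 19p. Among enriched clusters the median on 19p was 1.98 in replicate 1 and 2.31 in replicate 2, below the 2.06 and 2.47 of the other autosomes. A log2 fold of 0 or below was carried by 19.5% of 19p clusters in replicate 1 against 32.1% on the other autosomes. The rest of chromosome 19 had 26.2%. Clusters on 19p also carried the most frequent single log2 fold of their library less often. In replicate 1 that value was -0.65, at 5.11% of 19p clusters and 10.2% of those of the other autosomes. In replicate 2 it was 1.73, at 9.14 and 13.4%, and in the control 5.54, at 7.69 and 19.3%. The rest of chromosome 19 was also below the other autosomes, at 7.91%, 9.71% and 8.50% in replicate 1, replicate 2 and the control.

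At equal fold, clusters of 19p passed the threshold on P more often than those of the other autosomes. Of clusters with a log2 fold of 1 to 2, 39.3% were enriched on 19p and 18.9% on the other autosomes in replicate 1, and 43.8% and 23.8% in replicate 2. For a log2 fold of 2 to 3 the shares were 77.5 and 60.4% in replicate 1 and 77.8 and 60.2% in replicate 2. The rest of chromosome 19 was also above the other autosomes. Its shares in replicates 1 and 2 were 32.57% and 40.79% for 1 to 2, and 77.62% and 75.55% for 2 to 3. Above 3 every cluster was enriched on 19p and elsewhere. The median −log10 P in the range of 2 to 3 was 2.59 on 19p and 1.60 elsewhere in replicate 1, and 2.93 and 1.54 in replicate 2. The control showed no such excess, with 8 of 26 clusters enriched on 19p at a log2 fold of 1 to 2 (30.8%, 16.5 to 50.0) and 42.7% elsewhere. At a given fold, P depends on how many reads a cluster held, and the lists hold no read counts, so the part of read number in these shares was not tested.

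**Figure D4:**
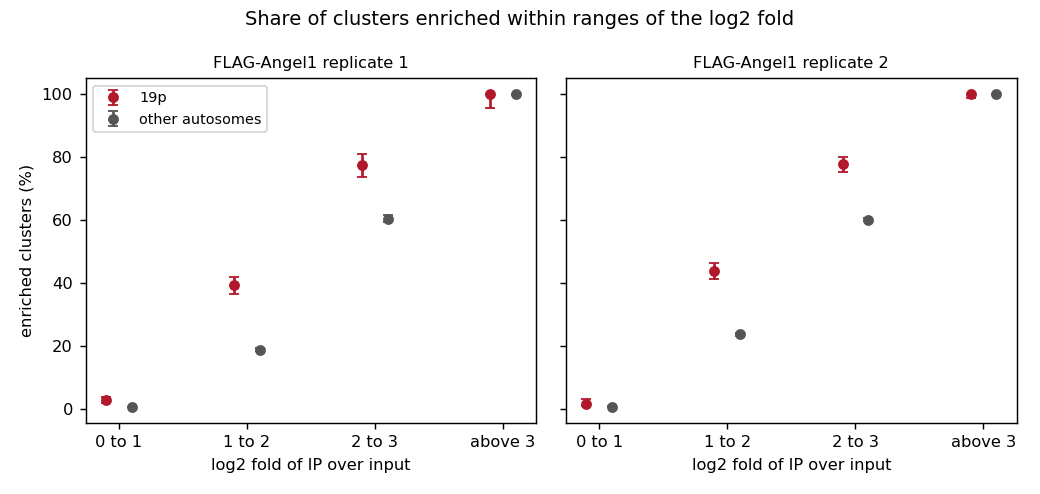
Percent of clusters enriched (P under 0.05) within ranges of the log2 fold of IP over input in the FLAG-Angel1 replicates, for 19p in red and the other autosomes in grey; bars are Wilson 95% intervals. In the ranges 1 to 2 and 2 to 3 the 19p points lie above those of the other autosomes in both replicates, and above 3 all stand at 100%.

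Enrichment also varied along the arm. By window, 3.13 to 45.9% of clusters were enriched in replicate 1 (median 26) and 33.1 to 71.6% in replicate 2 (median 51.4). Window 11 was the highest in both, with 149 of 325 and 239 of 334 clusters. Window 10 was the lowest in replicate 1, with 3 of 96, but held 50 of 103 in replicate 2, and on its minus strand 0 of 70 were enriched in replicate 1 and 39 of 79 in replicate 2. The lowest window of replicate 2 was window 8 (7000001 to 8000000), with 42 of 127 enriched and 19 of 174 in replicate 1.

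FLAG-Angel1 clusters were packed closer together on 19p, and as listed they were narrower. The median width was 53 nt in replicate 1 and 47 nt in replicate 2, against 60 and 51 nt on the other autosomes, while control clusters were wider on 19p (38 against 28 nt). Control medians of the 21 other autosomes ran from 16 nt on chromosome 21 to 40 nt on chromosome 12, with 2 above 19p. For enriched FLAG-Angel1 clusters the difference from the other autosomes was larger, with 61 against 86 nt in replicate 1 and 52 against 65 nt in replicate 2. The rest of chromosome 19 was near 19p for enriched clusters, at 58 and 56 nt. Over all its clusters the medians were 59 and 50 nt. Many clusters directly touched another on their strand. This held for 31.8% on 19p and 17.6% elsewhere in replicate 1, and for 20.1% and 10.8% in replicate 2, but for 46.6% and 55.4% in the control. When touching clusters were joined, the medians on 19p and elsewhere were both 64 nt in replicate 1, 50 and 52 nt in replicate 2, and 50 and 45 nt in the control, so the difference in replicate 1 was no longer present. Joined clusters that held an enriched one were still narrower on 19p, with 100 against 119 nt in replicate 1 and 63 against 71 nt in replicate 2. The median distance to the next cluster on the strand was 569 nt in replicate 1 and 760 nt in replicate 2, against 1544 and 1741 nt elsewhere. On the rest of chromosome 19 this distance was 621 and 906 nt, and 25.4% and 16.9% of clusters touched another. In all, clusters on 19p covered 11866 nt per Mb in replicate 1 and 9077 in replicate 2, against 2747 and 2216 on the other autosomes, and 468 against 76.2 in the control. The longest row of touching clusters in replicate 1 ran from 1440017 to 1440252 on the plus strand and held 6 clusters, all enriched, with log2 folds of 1.06 to 2.57. Replicate 1 had 20 rows of 5 or more and replicate 2 had 1, at 13051057 to 13051266 on the plus strand, whose 5 clusters were all enriched with log2 folds of 2.41 to 3.13.

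Replicates agreed in position on 19p about as well as elsewhere when read from replicate 1, and in a larger share when read from replicate 2. Of replicate 1 clusters, 55.2% overlapped one of replicate 2 on the same strand by at least 1 nt, against 52.2% on the other autosomes, and in the reverse direction 58.5% against 54.2%. An enriched cluster of replicate 2 lay under 774 of 1031 enriched clusters of replicate 1 (75.1%, 72.3 to 77.6; 76.6% elsewhere). In reverse, 772 of 1842 did so (41.9%, 39.7 to 44.2), against 22.04% on the other autosomes and 34.6% on the rest of chromosome 19. Of clusters with P under 0.001, 310 of 435 in replicate 1 (71.3%) and 330 of 990 in replicate 2 (33.3%) lay in a reproducible peak, against 75.9% and 18.97% elsewhere. Possible partners were also more numerous, since enriched clusters of replicate 1 were 12.1 times as dense on 19p as elsewhere, and their part in the larger reverse share was not tested.

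Window 10 again stood low, with 5 of 50 enriched clusters of replicate 2 over an enriched one of replicate 1. Window 7 stood highest, with 24 of 35. From replicate 1 the share ran from 63.2% in window 8 to 92.6% in window 9, where 25 of 27 enriched clusters had an enriched partner.

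Between overlapping clusters, the size of the enrichment followed only weakly from one replicate to the other. Over 2149 pairs of overlapping clusters the log2 folds had r = 0.18 (rho = 0.17), as on the other autosomes (r = 0.22), and over 768 pairs enriched in both replicates r = 0.09. Replicate 2 was the higher of the pair in 74.3%, by a median of 0.75 on the log2 scale over all pairs (SD 1.17). Clusters of 1 library share its depth, so these values carry no P. Keeping only pairs enriched in both replicates narrows the range of folds, and its part in the lower r was not tested. Over means per window and strand r was 0.27. The paper reports high agreement of enrichment between its replicates by gene, which is a different unit from the cluster pairs used here.

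Few enriched clusters of 19p lay over the control. An enriched control cluster on the same strand was found under 66 of 1031 enriched clusters of replicate 1 (6.40%, 5.06 to 8.06; 7.76% elsewhere) and 95 of 1842 of replicate 2 (5.16%, 4.24 to 6.26; 3.64% elsewhere). By window the share ran from 0 to 14.3% in replicate 1 and from 0 to 13.0% in replicate 2, highest in both in window 4 (3000001 to 4000000), with 12 of 84 and 13 of 100. Seen from the control, 52 of its 210 enriched 19p clusters lay over an enriched cluster of replicate 1 (24.8%) and 79 over one of replicate 2 (37.6%), against 13.5% and 25.04% on the other autosomes. The rest of chromosome 19 was higher than 19p on both, at 38.8% and 52.4%. Enriched FLAG-Angel1 clusters were also 12.1 and 6.04 times as dense on 19p, and their part in these shares was not tested. Over no cluster of either replicate lay 103 of the 210 on 19p (49.0%, 42.4 to 55.8; 58.1% elsewhere). The control list is short, so absence from it does not exclude background at a region.

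The control clusters of largest log2 fold were mostly apart from FLAG-Angel1. A touching pair at 4012134 to 4012181 on the plus strand and another at 7968319 to 7968354 on the minus strand each carried a log2 fold of 7.54 in both clusters. The first pair had no overlap with either replicate, and the second met 1 cluster of replicate 2, which had a log2 fold of 1.73 and was not enriched. A pair at 13177081 to 13177116 (7.28) and a cluster at 3407808 to 3407854 (7.20), both on the plus strand, also met no FLAG-Angel1 cluster. Only the pair at 7293835 to 7293930 on the minus strand (6.76) lay over an enriched cluster, in replicate 2 with a log2 fold of 2.68, and over a cluster of replicate 1 with 1.00 that was not enriched.

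Reproducible peaks gave the most selective view of FLAG-Angel1 on 19p. Of 2243 such peaks in all, 218 were on 19p (9.72%), 115 on the plus and 103 on the minus strand. Their median width was 116 nt (quartiles 77.5 and 164; 127 nt elsewhere). The log2 fold and the −log10 P of a peak were each the largest among its clusters in a replicate. They may therefore come from different clusters. Median log2 folds of the 19p peaks were 2.23 and 2.42 in replicates 1 and 2, close to the 2.30 and 2.54 of the other autosomes. Replicate 2 was higher in 138 of the 218, and the differences had an SD of 0.84. The folds of both replicates reached 3 in 6 peaks. An enriched control cluster lay under 32 of 218 (14.7%, 10.6 to 19.99; 16.5% elsewhere). This was a larger share than for enriched clusters of either replicate alone, on the other autosomes too. Merged peaks are wider, and a wider interval can meet a control cluster more easily, but the part of width was not tested. Peaks merged at a threshold of 0.05 had a share of 9.28% on 19p. On the rest of chromosome 19 the share of reproducible peaks was 26.7%.

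These peaks were spread unevenly over 18 of the 20 windows. Window 11 held 34, window 2 held 32, window 12 (11000001 to 12000000) 22, window 4 held 18 and window 3 held 17, while windows 8 and 10 held 0. All 22 of window 12 were on the plus strand, which was the highest count for 1 window and strand. Window 11 held 19 on the plus and 15 on the minus strand, the plus strand of window 2 held 18 and the minus strand of window 4 held 17. In 11 of the 40 window and strand units there was none, although each unit held clusters of both replicates. When peaks of 1 strand no more than 5 kb apart were joined, they formed 114 loci, of which 72 had 1 peak, 35 had 2 to 4 and 7 had 5 or more. Those 7 loci held 58 of the 218 peaks. Peaks that touched each other were counted separately in all these numbers, and counts with them joined were not computed.

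The locus with the most peaks lay at 3976466 to 3984237 on the minus strand of window 4, with 16 peaks over 7772 nt. Touching peaks were counted separately, and the 16 include stretches of 2 nt at 3979806 and 3983108 that each touch a longer peak. Stretches of 3 nt at 3980975 and 3984134 do so too. The first rank of this locus by number of peaks depends on that splitting. All of its 33 clusters in replicate 1 and 30 in replicate 2 were enriched. It held each of the 10 peaks of 19p with the largest lower −log10 P, whereas its folds were ordinary, with log2 values of 1.63 to 3.05 in replicate 1 (median 2.20) and 1.35 to 2.73 in replicate 2 (median 2.45). The peak of smallest P, at 3980846 to 3980974, had a −log10 P of 400 in replicate 1, the highest value the lists contain, and 86.9 in replicate 2, at log2 folds of 1.92 and 2.49. A peak at 3981337 to 3981422 followed with 67.3 and 74.3, at log2 folds of 1.83 and 2.63. A stretch of 3 nt at 3980975 to 3980977, which touched the first, had 66.8 and 62.7. Next came the peaks at 3983110 to 3983246, with 51.9 and 47.2, and at 3979808 to 3979872, with 61.0 and 47.1. The control list also had 7 clusters at this locus, 6 of them enriched. Enriched control clusters lay under 7 of the 16 peaks, with touching peaks counted separately. Their log2 folds were lower than those of FLAG-Angel1, at 1.19 under the peak of smallest P and 1.98 under the peak at 3983110. The gap was not always wide. Under the peak at 3978006 to 3978106 the control had 1.60, against 1.63 in replicate 1 and 2.70 in replicate 2. Without this locus 202 reproducible peaks were left on 19p and their density was 13.1 times that of the other autosomes.

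The other loci of 5 or more peaks were in windows 2, 11 and 12. On the plus strand at 10787839 to 10800159 lay 11 peaks, where 32 of 38 clusters in replicate 1 and 46 of 47 in replicate 2 were enriched, and 3 peaks were over an enriched control cluster. On the minus strand at 10501896 to 10506879 lay 8 peaks, none of them over an enriched control cluster, with median log2 folds of 2.28 and 2.66. The locus at 1577423 to 1582666 on the minus strand had 7 peaks, with 1 over the control, and that at 11552056 to 11561535 on the plus strand had 6, with 2 over the control. At 1438403 to 1440467 on the plus strand 4 of 5 peaks lay over enriched control clusters, and this locus contains the row of 6 touching clusters described above. The 5 peaks at 1205769 to 1206716 on the plus strand met no control cluster. In the control the first of these loci had 5 enriched clusters and that at 11552056 had 7.

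Peaks of largest fold lay outside these loci with 1 exception. Ranked by the lower log2 fold of the replicates, the first was a peak of 35 nt at 11121090 to 11121124 on the plus strand, with 3.67 in replicate 1 and 3.81 in replicate 2 and −log10 P of 3.59 and 9.01. A peak at 11071636 to 11071754 on the plus strand had 3.26 and 3.27, and one at 4054166 to 4054363 on the minus strand had 3.11 and 3.15. At 8520289 to 8520369 on the plus strand the values were 3.40 and 3.10, at 14272144 to 14272315 on the minus strand 3.26 and 3.05, and at 15443100 to 15443205 on the minus strand 3.02 and 3.11. The last of these lay over an enriched control cluster with a log2 fold of 2.37. Of the remaining 4, the peak at 4429732 to 4429785 on the plus strand differed most between replicates, with 2.94 and 4.27. The peak at 582561 to 582582 on the plus strand had 3.47 and 2.93, and that at 13885466 to 13885521 on the plus strand had 2.92 and 3.15. The exception was the peak at 11552056 to 11552172 on the plus strand, with 2.92 and 3.08, over an enriched control cluster of 2.73. The other 8 met no control cluster.

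The widest peak ran over 322 nt at 6424471 to 6424792 on the minus strand, with log2 folds of 2.55 and 1.54. It was followed by 305 nt at 10828760 to 10829064 on the plus strand (1.18 and 2.55) and 268 nt at 18392163 to 18392430 on the minus strand (2.46 and 1.93). A peak of 263 nt at 4123853 to 4124115 on the minus strand had 1.15 and 1.12. The fifth, of 250 nt at 18942764 to 18943013 on the plus strand, had 2.10 and 2.47. Of these 5 peaks 1 met a control cluster, at 18392163, and that cluster was not enriched.

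**Figure D5:**
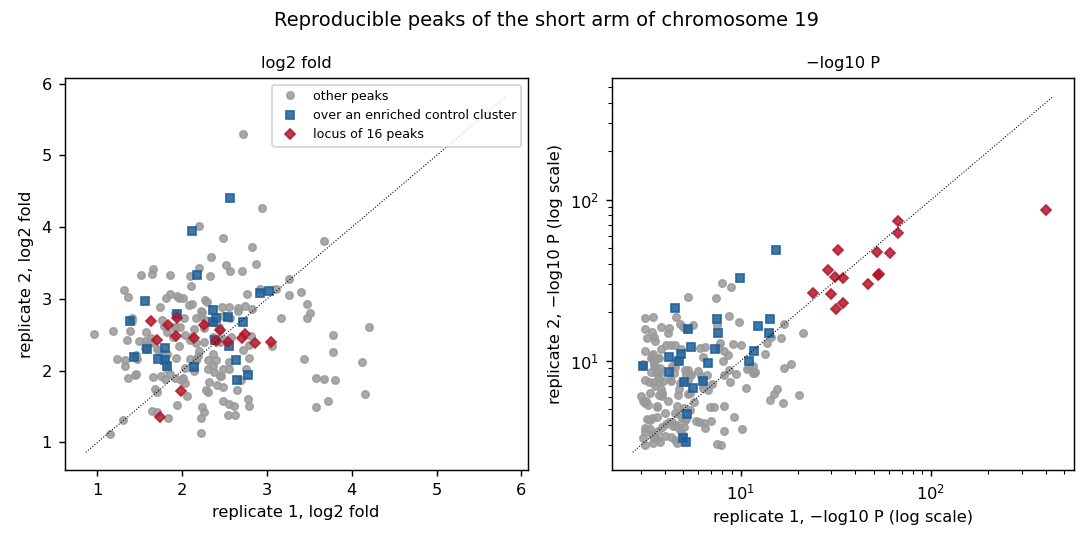
The 218 reproducible peaks of 19p, with the largest log2 fold (left) and the largest −log10 P (right, log scales) among the clusters of each peak. Both were taken separately, in replicate 1 (horizontal) and in replicate 2 (vertical). Diamonds are the 16 peaks of the locus at 3976466 to 3984237, squares are peaks elsewhere over an enriched control cluster, and circles are the others; the diamonds lie apart on the right panel and within the cloud on the left.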

How the data were processed

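Published eCLIP libraries of Flp-In T-REx HEK293 cells were analysed from the authors' cluster lists for 2 FLAG-Angel1 IPs and 1 FLAG-only IP, and the 3 inputs entered only through the values in them. The submitters' processing notes name cutadapt, STAR, SAMtools and UMI-tools, with versions not given in the sources used here, and GRCh37. Per the labels, reads went through the Yeo laboratory's eCLIP pipeline. The authors called clusters per library, without pooling, and deposited for each the log2 fold of IP over size-matched input and the −log10 of its P, which reached at most 400. The lists hold no read counts, so depth is unknown and the numbers of clusters stand in for it.

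Clusters were assigned by midpoint to windows of 1 Mb counted from position 1 (the last of 0.7 Mb, scaled by length). The other autosomes were represented by the 2215 windows that held a cluster of any library, and 19p by 19.7 Mb. Overlaps required 1 nt on the same strand and were checked with bedtools 2.31.1, and the steps were tested on simulated lists. Python 3.11.15, pandas 2.3.3, numpy 2.4.6, scipy 1.17.1 and matplotlib 3.10.9 were used. The regions named were the 10 reproducible peaks of largest lower log2 fold, the 5 of largest lower −log10 P, the 5 widest, the 5 control clusters of largest log2 fold with ties, the 3 fullest and 3 emptiest windows of each replicate and the 5 window and strand units with the most reproducible peaks. Other windows, the loci, the rows of touching clusters and the units compared for strand were chosen after their values were seen. The region, rules and lists were chosen with earlier results of these data known.

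No gene annotation or sequence of GRCh37 was used here, so clusters were not assigned to genes, gene lists drawn up for the short arm were not used, and no sequence is shown. RefSeq genes of GRCh38.p14 were used only to count protein-coding genes per chromosome. Alternatives covered the thresholds, the overlap, the joining of touching clusters (not of touching reproducible peaks), the length used and each replicate alone. Those leaving out the fullest window or the largest locus, other linking distances, clusters with a log2 fold above 3 and joined widths elsewhere were chosen after seeing the data.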

Additional observations from a re-analysis of the deposited data

How the results depend on the processing

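Of 86 alternative values for 22 results, 43 stayed within the limits set for a change and 43 moved, and 19p stayed denser than the other autosomes under each alternative computed. Selecting enriched clusters moved the density on 19p relative to the other autosomes to 12.1 in replicate 1, selecting a log2 fold above 3 to 9.45 there, and selecting P under 0.001 to 15.04 in replicate 1 and 8.11 in replicate 2. The percent of clusters called fell by construction at the threshold of 0.001, to 11.2 and 28.7 in replicates 1 and 2 and 52.6 in the control, and to 1.47, 5.98 and 50.9 when a log2 fold of 3 was also required. Joining touching clusters gave 22.3 and 49.2% enriched in replicates 1 and 2 and median widths of 64 and 50 nt there and 50 nt in the control. Enriched clusters alone had median widths of 61 and 52 nt, and 53.9% of those of replicate 1 were on the plus strand.

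Reproducible peaks numbered 539 at a threshold of 0.05 and 6 with both log2 folds at 3 or more, in which case their density was 6.96 times that of the other autosomes. With either replicate alone the number was 435 to 990 and the relative density 8.11 to 15.04. Linking within 20 kb gave 75 loci. The share of enriched clusters of replicate 1 over those of replicate 2 was 71.3% at 0.001, 83.2% with any cluster as partner and 44.9% with a reciprocal overlap of 50%, and in reverse 33.3, 73.6 and 25.1%. Over the control these were 3.68, 9.21 and 2.33% for replicate 1 and 1.72, 6.84 and 2.50% for replicate 2. For reproducible peaks the share over the control was 9.28% at 0.05, 21.1% with any control cluster and 4.59% with a reciprocal overlap of 50%. The correlation of the log2 fold was 0.0904 over pairs enriched in both replicates and 0.27 over means of 39 windows and strands with at least 10 clusters in each, and that of counts 0.90 for enriched clusters. A looser partner raises and a reciprocal overlap lowers a share by construction, and for the other changes the cause was not tested.

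No paired analysis was possible because the control and FLAG-Angel1 IPs share only 1 replicate number, while the deposited log2 fold already sets each IP against its own input. The main limits are the single control library, its short list, the absence of read counts and of expression levels, and the many touching clusters, whose origin was not tested. Windows and clusters are not replicates, and intervals cover counting error only.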

Other observations

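The remainder of chromosome 19 differed from 19p in the use of its strands. Of its 176 reproducible peaks, 130 were on the plus strand (73.9%, Wilson 95% interval 66.9 to 79.8), against 115 of 218 on 19p (52.8%, 46.1 to 59.3), and 47 lay over an enriched control cluster (26.7%, 20.7 to 33.7), against 32 of 218 on 19p. Its log2 folds also followed each other more closely between replicates, with r = 0.24 over 696 pairs of clusters enriched in both, against r = 0.09 over 768 pairs on 19p. No test was made of these differences, since clusters of 1 library are not independent.

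The largest fold of a reproducible 19p peak in either replicate was a log2 of 5.29 in replicate 2, at 10782034 to 10782211 on the plus strand. The same peak had 2.72 in replicate 1, where 5 clusters fell into it, and a control cluster of 1.54 that was not enriched.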
